A study of Mus musculus with 9 samples.

Results

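The genes described here are 5 transcription factors that carry the signal of the circadian clock to its target genes: Dbp, Tef, Hlf, Nfil3 and Bhlhe40. They were chosen by gene name, and all 5 were found among the 42188 genes of the deposited tables, with counts in all 9 libraries. The libraries are from livers of wild-type mice labelled male C57BL/6J, 8 weeks old, in 3 groups of 3. Control mice received saline buffer into the tail vein. ConA mice received concanavalin A, a lectin used to provoke T cell-driven liver injury, at 20 mg/kg by the same route. MSA_ConA mice received MSA, read here from the series title as mesaconate, at 250 mg/kg into the abdomen 6 h before the same dose of ConA. Livers were taken 12 h after ConA. No group received MSA alone, and the clock time of collection is not given in the sources used here.

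The clock of a liver cell is a transcription loop. CLOCK and BMAL1 (gene Arntl) bind E-box elements and switch on the Per, Cry and Nr1d genes, whose proteins feed back on them. DBP, TEF and HLF are the PAR bZIP proteins, activators that bind D-box elements and raise genes of drug, bile acid and lipid handling in liver. NFIL3, also called E4BP4, is a related bZIP protein that binds the same D-box and represses, and its gene is itself a target of REV-ERB and ROR proteins. BHLHE40, also called DEC1, is a basic helix-loop-helix repressor that competes for E-boxes. Nfil3 and Bhlhe40 are also known to be switched on by cytokines, hormones and low oxygen, so they join clock and stress inputs.

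Promoter sequences show which of these elements lie next to the genes. RefSeq promoter windows of mouse build GRCm38.p6, from 250 bases before to 50 after a start, matched 4 of the 5 genes, with 2 windows for Tef. They were searched on both strands for CACGTG (the E-box), CACGTT (a related E-box), TTANGTAA (the D-box), TAGGTCA (a site type of ROR and REV-ERB) and TTCNNNGAA (a STAT-type site). Windows that held a match are printed from 5′ to 3′ along the gene, with the match in capitals.
Dbp, chr7:45704997-45705296, plus strand: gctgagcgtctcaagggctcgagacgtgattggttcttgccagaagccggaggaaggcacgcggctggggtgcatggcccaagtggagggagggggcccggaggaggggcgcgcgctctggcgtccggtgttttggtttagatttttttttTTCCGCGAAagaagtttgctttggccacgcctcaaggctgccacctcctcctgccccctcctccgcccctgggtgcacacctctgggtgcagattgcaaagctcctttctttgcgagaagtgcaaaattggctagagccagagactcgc
Tef, window 1, chr15:81802423-81802722, plus strand: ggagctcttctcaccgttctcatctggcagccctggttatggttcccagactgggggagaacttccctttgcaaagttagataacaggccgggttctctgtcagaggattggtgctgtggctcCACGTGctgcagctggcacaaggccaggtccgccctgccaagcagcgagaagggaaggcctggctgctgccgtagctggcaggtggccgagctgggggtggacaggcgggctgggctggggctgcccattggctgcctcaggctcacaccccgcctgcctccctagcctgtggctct
Tef, window 2, chr15:81811164-81811463, plus strand: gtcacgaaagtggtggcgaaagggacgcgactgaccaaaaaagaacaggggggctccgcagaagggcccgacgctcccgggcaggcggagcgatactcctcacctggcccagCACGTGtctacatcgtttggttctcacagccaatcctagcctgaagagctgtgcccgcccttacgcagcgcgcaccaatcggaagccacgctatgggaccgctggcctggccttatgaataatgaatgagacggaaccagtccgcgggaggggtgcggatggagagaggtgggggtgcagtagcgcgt
Nfil3, chr13:52980990-52981289, minus strand: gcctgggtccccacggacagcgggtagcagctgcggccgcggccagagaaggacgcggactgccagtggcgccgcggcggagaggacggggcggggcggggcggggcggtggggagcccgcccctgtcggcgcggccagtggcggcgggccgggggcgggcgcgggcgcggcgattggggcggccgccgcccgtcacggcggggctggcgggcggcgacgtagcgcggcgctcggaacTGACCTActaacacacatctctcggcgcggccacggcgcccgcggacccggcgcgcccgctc

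Both Tef windows held the E-box CACGTG, at positions -127 and -138 from the start. Of 32851 promoter windows, 7.15% held that element. The Dbp window held TTCNNNGAA at position -99, as did 8.30% of all windows. The Nfil3 window held TGACCTA at position -12, which is TAGGTCA on the other strand and was found in 2.61% of all windows. The Hlf window (chr11:90390868-90391167, minus strand) held none of the 5 motifs, and no window held TTANGTAA, found in 2.32% of all windows, or CACGTT, found in 4.68%. These are letter matches in a short window and say nothing of binding.

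In the deposited tables the gene models lie on the C57BL/6NJ strain assembly, whose coordinates differ from those of the windows above. Dbp is on chromosome 7 at 48264267-48269334 on the plus strand, with a model length of 2945 bases. Tef is on chromosome 15 at 85501338-85526100, plus strand, 7886 bases, and Hlf on chromosome 11 at 95039965-95099083, minus strand, 6681 bases. Nfil3 is on chromosome 13 at 53891020-53904878, minus strand, 2026 bases, and Bhlhe40 on chromosome 6 at 113850007-113856352, plus strand, 4705 bases. The end of Dbp overlaps Sphk2, which is on the other strand and had 185 to 969 counts, and the use of strand in the counting is not stated. The antisense models next to Tef (Gm17597) and Bhlhe40 (0610040F04Rik) had at most 30 and 7 counts.

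Libraries held 13294600 to 17276391 counts, and 1 count was worth 0.0515 to 0.132 CPM (counts scaled to library size, with TMM factors of 0.571 to 1.26). The 9 libraries did not sort by group alone: those numbered 1 stood apart from those numbered 2 and 3. Xist was at or below 0.484 CPM in the 3 libraries numbered 1 and at 667 to 1131 in the other 6, against the male label. Nnt, part of which is known to be deleted in C57BL/6J, was at 29.8 to 34.5 CPM in number 1 and at 168 to 266 in the other 6, so the strain label of those 6 is also in doubt. Libraries are therefore named by their labels throughout, and number 1 is given apart from numbers 2 and 3. That division was known from earlier results of these data, so its tests describe these libraries and are not independent evidence for it. Hepatocyte markers (6 genes, summed) were at 91198 to 151519 CPM in all libraries. Alb gave most of each sum, and single markers varied more. Tat ran from 599 CPM in MSA_ConA 3 to 15562 in MSA_ConA 1, and Apoa1 from 2474 in MSA_ConA 2 to 25106 in MSA_ConA 1. Cxcl10, an interferon-induced chemokine, was at 3505 CPM in the library labelled ConA 1 and at or below 13.9 elsewhere.

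Per unit of length, Dbp and Tef had the highest means in the libraries numbered 2 and 3, and Nfil3 and Bhlhe40 led in ConA 1 and MSA_ConA 1. The deposited FPKM are counts per unit of gene length and of a single scaling total for each library, which differs from its total count. That scaling total was 7434350 in MSA_ConA 1, against 13294600 counts. In FPKM, the means over the 6 libraries numbered 2 and 3 were 57.6 ± 18.9 (SD, n = 6) for Dbp, 44.5 ± 4.18 for Tef, 31.2 ± 3.69 for Bhlhe40, 14.9 ± 1.98 for Hlf and 6.14 ± 1.47 for Nfil3. Dbp overlapped with Tef and with Bhlhe40 over these libraries, while the other neighbours in that order did not overlap. In Control 1 the order was Nfil3 (14.6 FPKM), Tef (10.4), Bhlhe40 (9.35), Hlf (3.89) and Dbp (3.47). In ConA 1 it was Bhlhe40 (359 FPKM), Nfil3 (241), Tef (2.94), Dbp (2.05) and Hlf (1.14), and in MSA_ConA 1 Nfil3 was highest, at 287 FPKM.

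**Figure D1:**
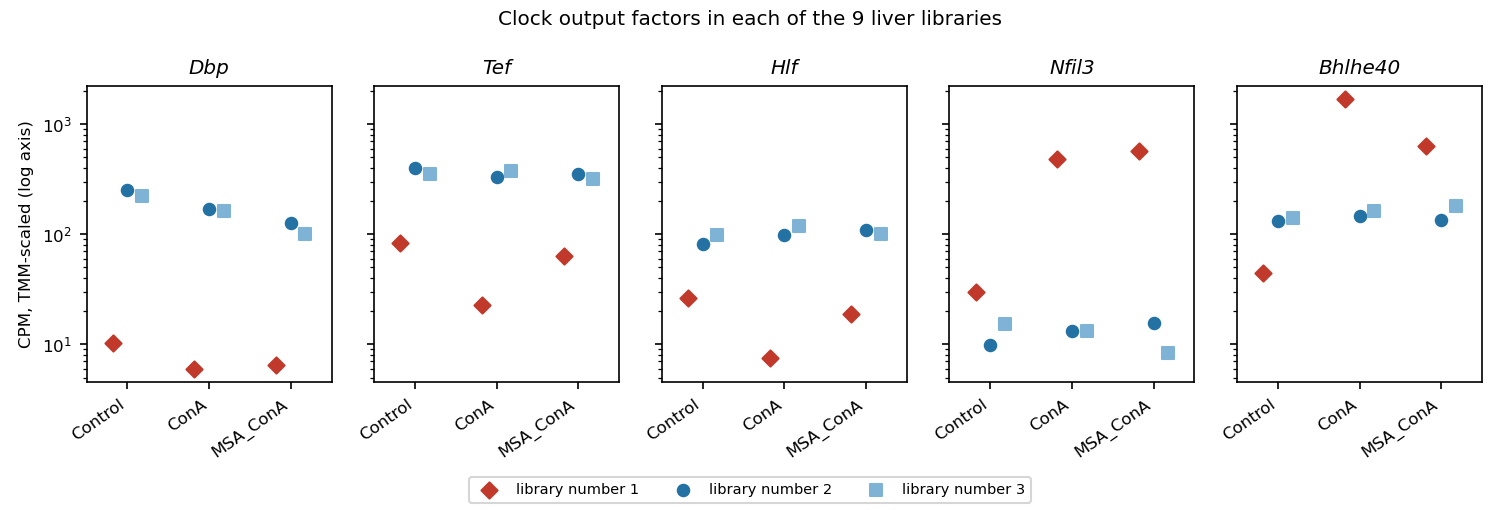
CPM of the 5 factors in each of the 9 libraries (log axis), by group and library number. Dbp, Tef and Hlf are lower in all 3 libraries numbered 1 than in the other 6, Nfil3 is higher in all 3, and Bhlhe40 is lower in Control 1 and higher in ConA 1 and MSA_ConA 1.

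Dbp, the activator whose transcript is known to swing strongly over the day in liver, was at 10.3, 251 and 222 CPM in Control 1, 2 and 3. It was at 6.00, 171 and 163 CPM in ConA and at 6.45, 128 and 99.7 in MSA_ConA. Each library numbered 1 lay below all the others, and it did so by more than the groups differed among themselves. Tef, the second PAR bZIP activator, was at 82.8, 401 and 352 CPM in Control, 23.0, 331 and 377 in ConA, and 64.0, 357 and 318 in MSA_ConA. Hlf, their close relative, was at 26.1, 81.3 and 98.4 CPM in Control, 7.55, 98.3 and 118 in ConA, and 18.7, 110.3 and 101 in MSA_ConA. Tef and Hlf thus shared a pattern, lowest in ConA 1. Dbp was also lowest there by these values, but with library totals it was lower in MSA_ConA 1 (3.69 CPM) than in ConA 1 (4.04).

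Nfil3, the repressor, was at 29.6, 9.91 and 15.4 CPM in Control, 485, 13.3 and 13.2 in ConA, and 568, 15.7 and 8.39 in MSA_ConA. ConA 1 and MSA_ConA 1 stood far above the rest, and Control 1 was the next highest. Bhlhe40, the E-box repressor, was at 44.2, 132 and 140.4 CPM in Control, 1677, 146 and 162 in ConA, and 633, 135 and 179.5 in MSA_ConA. It was lowest of all in Control 1 and highest in ConA 1, so it does not order by library number alone. Neutrophil markers (6 genes) summed to 414 CPM in ConA 1, 49.9 in MSA_ConA 1, 3.05 in Control 1 and 1.04 to 3.04 in the other 6 libraries. S100a9 and S100a8 gave most of it, 261 and 110 CPM in ConA 1 and 28.4 and 17.6 in MSA_ConA 1. Ngp was at 37.3 CPM in ConA 1 and 1.45 in MSA_ConA 1, where Ly6g and Mpo were at 0. T and NK cell markers (7 genes) summed to 32.4 CPM in ConA 1 and 3.16 to 5.66 elsewhere. Gzmb made up 24.8 of the 32.4 and Nkg7 3.39, against 0.521 and 0.745 CPM in Control 1. Cd3d also lay above Control 1 (0.967 against 0.223). Cd3e, Cd4, Cd8a and Ncr1 in ConA 1 (0.484, 2.32, 0.387 and 0.0967 CPM) lay below Control 1 (0.745, 2.53, 0.596 and 0.298). These 4 had only 1 to 24 counts in ConA 1. In MSA_ConA 1, where Nfil3 was highest, 4 of the 7 were at 0. Cholangiocyte markers (5 genes) summed to 781 CPM in ConA 1 and 48.8 to 116 elsewhere, but Sox9 gave 634 and Spp1 129 of that sum. Epcam and Krt7 were also higher in ConA 1 (10.9 and 3.19 CPM) than in Control 1 (1.94 and 1.19). Krt19 was lower, at 3.97 CPM in ConA 1 and 4.84 in Control 1. Adipocyte markers (5 genes) ran from 2.60 to 442 CPM. The highest sum, in MSA_ConA 1, was almost all Cidec (441 CPM), with Adipoq, Plin1 and Lep at 0, whereas Plin1 was highest in ConA 2 (9.78 CPM) and MSA_ConA 3 (14.9). Kupffer cell markers (6 genes) summed to 119 to 330 CPM, but the members went different ways. Marco was at 18.2, 59.1 and 18.2 CPM in Control 1, ConA 1 and MSA_ConA 1, and at most 2.32 in the other 6 libraries. Vsig4 was at 25.2, 6.58 and 8.30 CPM in number 1 and 24.8 to 37.7 in the others. Clec4f, Timd4 and Adgre1 in ConA 1 and MSA_ConA 1 also lay below the other 6, and Cd5l did so only in MSA_ConA 1. The part of these cell types in these levels was not tested, and in bulk tissue fewer cells of a type and less RNA per cell cannot be told apart.

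Between the 3 groups as labelled, none of the 5 factors passed the test. In edgeR's quasi-likelihood test with Benjamini-Hochberg adjustment, 0 of 14603 genes (0%) passed an adjusted p of 0.05 in ConA against Control, in MSA_ConA against ConA or in MSA_ConA against Control, and 563, 248 and 730 had an unadjusted p under 0.05. DESeq2 called 2, 1 and 64 genes, and limma-voom called 0 in each. By unadjusted p Bhlhe40 came nearest, 2.65 log2 units higher in ConA than in Control (SE 1.08, unadjusted p = 0.0370, adjusted p = 0.999672 by the same test). By adjusted p the lowest was Nfil3 in MSA_ConA against Control, 3.43 log2 units higher (SE 1.86, edgeR adjusted p = 0.937403). Bhlhe40 group means were 105.7 ± 53.4 CPM (SD, n = 3) in Control, 662 ± 880 in ConA and 316 ± 276 in MSA_ConA. Nfil3 means were 18.3 ± 10.2, 170.5 ± 272 and 197 ± 321 CPM, so the SD exceeded the mean in both ConA-treated groups. Dbp means were 161 ± 131, 113 ± 93.1 and 77.9 ± 63.5 CPM, Tef 279 ± 171, 244 ± 193 and 246 ± 159, and Hlf 68.6 ± 37.8, 74.6 ± 58.9 and 76.7 ± 50.4. Each pair of these comparisons shares 1 group of libraries. With 3 libraries a group, the p-values reflect only how much these libraries vary.

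With the group in the model, 4 of the 5 factors differed between the libraries numbered 1 and those numbered 2 and 3. The log2 difference, number 1 minus numbers 2 and 3, was -4.48 for Dbp (SE 0.246, adjusted p = 3.82e-05), -2.76 for Tef (adjusted p = 0.00152) and -2.61 for Hlf (adjusted p = 0.00216), by edgeR's quasi-likelihood test. Nfil3 was 4.51 log2 units higher (SE 0.742, adjusted p = 0.00332), and Bhlhe40, at 1.86 higher (SE 0.774), did not pass (adjusted p = 0.0874). Of all genes tested, 38.3% passed, 2785 higher (19.1%) and 2807 lower (19.2%), so many genes divided this way. With library totals in place of TMM the split was 1083 higher and 5449 lower, because the median of all genes moved from -0.10 to -0.81. All 3 libraries numbered 1 lay below the other 6 for 19.3% of genes, and above them for 14.7%.

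Within each group the size of the difference varied by gene. These tests set 1 library against 2, with the spread taken from numbers 2 and 3 of all groups, so the lone library is assumed to vary as they do. In Control, where 27.8% of genes passed (12.1% higher, 15.7% lower), Dbp in number 1 was 23.0-fold below the mean of numbers 2 and 3 (log2 difference -4.52, edgeR adjusted p = 0.000205), Tef 4.55-fold and Hlf 3.44-fold below (adjusted p = 0.00147 and 0.00320), and Bhlhe40 3.08-fold below (adjusted p = 0.00518). Nfil3 was 2.34-fold above, with adjusted p = 0.0441, which became 0.0614 with library totals, 0.158 without Control 2 and 0.0784 without Control 3. In ConA, where 56.9% of genes passed (26.6% higher, 30.2% lower), Dbp was 27.9-fold below, Tef 15.4-fold and Hlf 14.3-fold below, and Nfil3 36.7-fold and Bhlhe40 10.9-fold above. With library totals these folds were 48.9, 27.0 and 25.1 below and 20.9 and 6.21 above. With TMM their log2 differences were -4.80, -3.94, -3.84, 5.20 and 3.45, with SE from 0.214 to 0.376. In MSA_ConA, where 58.4% passed (26.5% higher, 31.9% lower), Dbp was 17.6-fold, Tef 5.27-fold and Hlf 5.65-fold below, and Nfil3 47.3-fold and Bhlhe40 4.03-fold above. With library totals the first 3 were at 0.0267, 0.0890 and 0.0830 of the mean of numbers 2 and 3, and the other 2 at 22.4 and 1.88 times it. The log2 difference of Bhlhe40 there was 2.01 with TMM and 0.91 with library totals (adjusted p = 0.00834). All 10 log2 differences in ConA and MSA_ConA passed in edgeR's test, with adjusted p from 2.34e-05 to 0.000254.

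The difference between ConA and Control was larger or smaller in number 1 than in numbers 2 and 3 for 4 of the 5 factors. In number 1 that difference is 1 library against 1, and the spread in the test (3 residual degrees of freedom) comes from numbers 2 and 3 alone, so the lone libraries are assumed to vary as those do. The difference of differences was 5.07 log2 units for Bhlhe40 (SE 0.337, adjusted p = 0.000248), 3.97 for Nfil3 (SE 0.550, adjusted p = 0.00290), -2.06 for Hlf (SE 0.310, adjusted p = 0.00376) and -1.75 for Tef (SE 0.280, adjusted p = 0.00464), by edgeR's quasi-likelihood test with an interaction term. For Dbp it was -0.27 (SE 0.325, adjusted p = 0.553), which does not show that its responses were alike. The background was 31.1% of genes, 2287 higher (15.7%) and 2250 lower (15.4%), or 1325 and 4145 with library totals. Direction and call were the same in all 50 combinations of gene and alternative, none of which could leave out a library numbered 1. Between the single libraries ConA 1 and Control 1, with exact 95% intervals that cover counting error only, Bhlhe40 was 37.9-fold higher (34.9 to 41.2) and Nfil3 16.4-fold higher (14.8 to 18.2). Tef was 3.60-fold lower (3.12 to 4.15), Hlf 3.46-fold lower (2.70 to 4.49) and Dbp 1.71-fold lower (1.26 to 2.35). With library totals Bhlhe40 and Nfil3 were 26.9-fold and 11.6-fold higher. Tef, Hlf and Dbp were then 5.07-fold, 4.88-fold and 2.41-fold lower, so each ratio lay outside its interval. Of all genes, 17.2% lay 2-fold or more above Control 1 in ConA 1, and 14.2% lay as far below, counting only genes whose higher value of the pair reached 5 CPM.

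**Figure D2:**
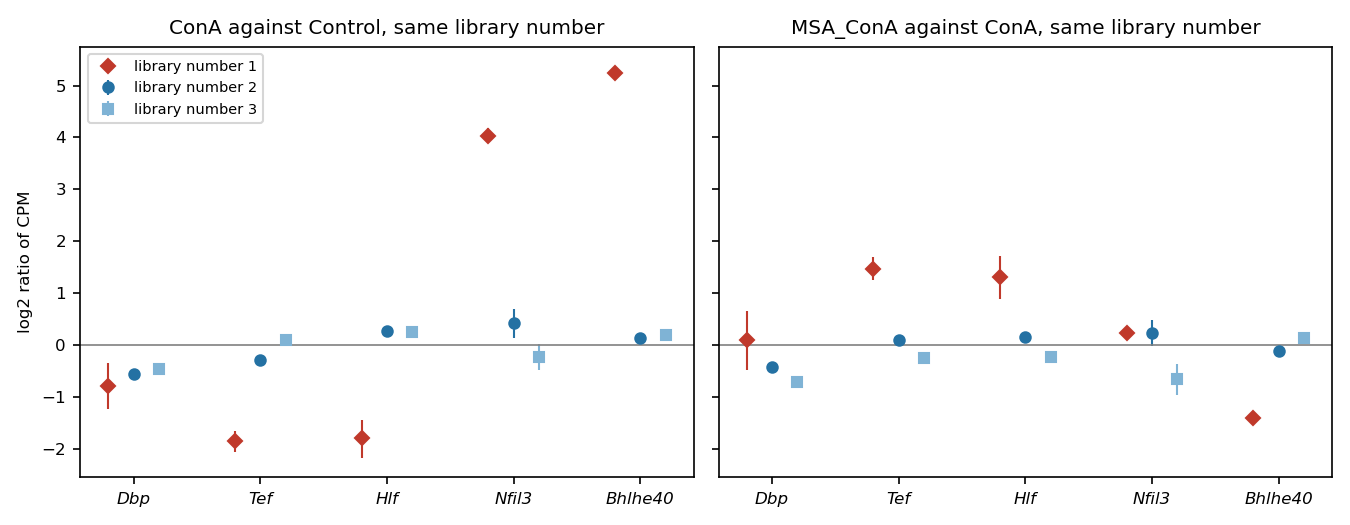
Log2 ratio of CPM between libraries of the same number, ConA over Control at left and MSA_ConA over ConA at right; bars are exact 95% intervals for counting error only. In number 1 the ratios of Nfil3 and Bhlhe40 reach 4.03 and 5.24 at left, whereas all ratios in numbers 2 and 3 lie between -0.71 and 0.42.

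The difference between MSA_ConA and ConA also varied by number class, for 3 of the 5 factors. By the same test it was 1.54 log2 units for Tef (SE 0.281, adjusted p = 0.0123), 1.34 for Hlf (SE 0.315, adjusted p = 0.0277) and -1.44 for Bhlhe40 (SE 0.312, adjusted p = 0.0216), and 0.37 for Nfil3 (SE 0.522, adjusted p = 0.659) and 0.66 for Dbp (SE 0.347, adjusted p = 0.218). The background was 18.7% of genes, 1255 higher (8.59%) and 1469 lower (10.1%), or 762 and 2047 with library totals. Hlf lost its call in limma-voom (adjusted p = 0.0731), in limma on FPKM (0.0814), without ConA 3 (0.0751) and without MSA_ConA 3 (0.0773), and Bhlhe40 lost it without ConA 2 (adjusted p = 0.0689) or ConA 3 (0.0604). Between MSA_ConA 1 and ConA 1, Tef was 2.78-fold higher (2.38 to 3.26), Hlf 2.48-fold higher (1.87 to 3.31) and Bhlhe40 2.65-fold lower (2.56 to 2.73), each with its exact 95% interval. With library totals Tef was 2.35-fold and Hlf 2.10-fold higher, and Bhlhe40 3.13-fold lower. Nfil3 was 1.17-fold higher (1.12 to 1.22), a ratio that was lost with library totals (log2 ratio -0.01), and for Dbp the ratio was 1.08 (0.724 to 1.59). By that rule of 2-fold and 5 CPM, 10.4% of all genes lay above ConA 1 and 13.4% below. Against Control 1, MSA_ConA 1 was 14.3-fold higher for Bhlhe40 (13.1 to 15.6) and 19.2-fold higher for Nfil3 (17.3 to 21.3), or 8.61-fold and 11.5-fold with library totals. By the rule of 2-fold and 5 CPM, 15.3% of genes lay above Control 1 and 14.5% below. Cxcl10 was at 2.63 CPM in MSA_ConA 1.

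Among the 6 libraries numbered 2 and 3, Dbp was the one factor whose groups did not overlap in order: Control above ConA above MSA_ConA. Of all genes 6.91% fell in that order and 4.72% rose in the reverse order. Dbp was 1.46-fold lower in ConA 2 than in Control 2 and 1.37-fold lower in ConA 3 than in Control 3, and in MSA_ConA it was 1.96-fold and 2.23-fold below the Control library of the same number. The order stayed with library totals, at 296 and 248 CPM in Control, 205 and 191 in ConA and 150 and 126 in MSA_ConA. With these 6 libraries alone, MSA_ConA minus Control was -1.05 log2 units for Dbp (SE 0.166, unadjusted p = 0.000286), but the adjusted p was 0.0823 by edgeR's test, and 0% of 14851 genes passed. Dbp ranked 33 by unadjusted p there, and the genes ranked above it share that adjusted p, the smallest of the comparison. ConA minus Control was -0.52 (adjusted p = 0.414) and MSA_ConA minus ConA was -0.54 (adjusted p = 0.929). Skeletal muscle markers (8 genes, summed) were at 1.93 and 0.728 CPM in Control 2 and 3, 343 and 59.2 in ConA, and 315 and 4254 in MSA_ConA, and their part in the Dbp order was not tested. The other 4 factors did not fall in that order. Against the Control library of the same number, Hlf was 1.21-fold higher in ConA 2 (exact 95% interval 1.13 to 1.29, counting error only) and 1.20-fold higher in ConA 3 (1.13 to 1.28). Bhlhe40 was 1.10-fold (1.04 to 1.16) and 1.15-fold (1.09 to 1.22) higher in the same pairs. Tef was 1.21-fold lower in ConA 2 and 1.07-fold higher in ConA 3, and Nfil3 1.34-fold higher and 1.17-fold lower, so neither kept a direction in these pairs. The data do not pair number 2 with 2 or 3 with 3, so these ratios depend on which libraries are set together. Hlf was at 98.3 CPM in ConA 2 and 98.4 in Control 3, and at 118 in ConA 3 and 81.3 in Control 2. Tef was lower in ConA in both of these crossed pairs, at 331 against 352 and 377 against 401 CPM. Set against the same-numbered Control library, Nfil3 was 1.58-fold higher in MSA_ConA 2 and 1.83-fold lower in MSA_ConA 3. Crossed pairs of Nfil3 lay closer, at 15.7 CPM in MSA_ConA 2 and 15.4 in Control 3. In MSA_ConA 3 and Control 2 it was at 8.39 and 9.91 CPM. By same-numbered pairs, Hlf was 1.36-fold higher in MSA_ConA 2 and at a ratio of 1.03 in MSA_ConA 3. In the fit of these 6 libraries, ConA minus Control was 0.25 log2 units for Hlf (SE 0.166, adjusted p = 0.545) and 0.16 for Bhlhe40 (SE 0.177, adjusted p = 0.719). It was -0.10 for Tef (SE 0.157, adjusted p = 0.796) and 0.05 for Nfil3 (SE 0.320, adjusted p = 0.959), all by edgeR's test.

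Between their lowest and highest of these 6 libraries, Dbp spanned 2.51-fold, Nfil3 1.87-fold, Hlf 1.45-fold, Bhlhe40 1.36-fold and Tef 1.26-fold.

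**Figure D3:**
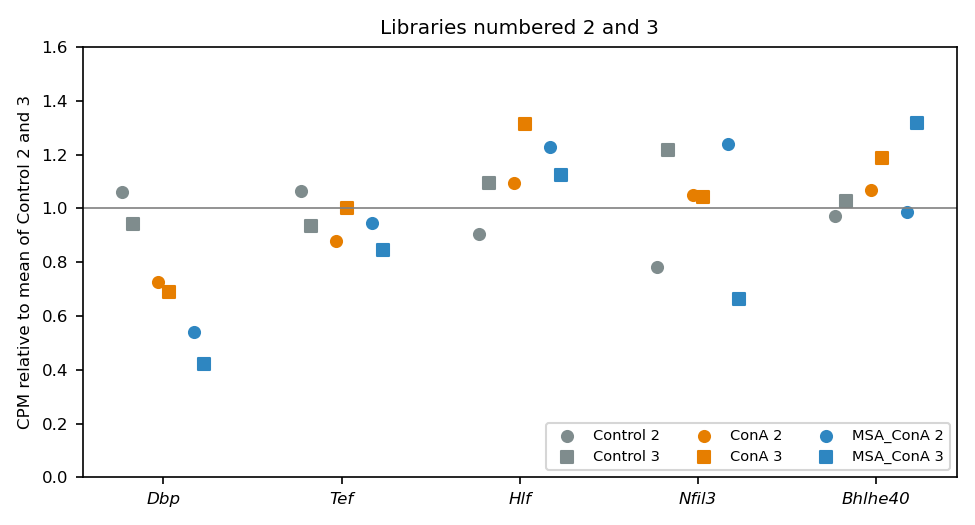
CPM of each factor in the 6 libraries numbered 2 and 3, relative to the mean of Control 2 and 3. Dbp falls stepwise from Control to ConA to MSA_ConA, and the other 4 factors show no such order.

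The balance of transcripts of the D-box activators and repressor, read from levels per length, followed the number classes. Protein levels and binding to the D-box were not measured. Summed over Dbp, Tef and Hlf, the PAR bZIP level was 17.8, 146 and 133 FPKM in Control, 6.13, 111 and 121 in ConA, and 13.4, 105 and 86.7 in MSA_ConA. The ratio of Nfil3 to that sum was 0.0330 to 0.0735 in the 6 libraries numbered 2 and 3, 0.817 in Control 1, 39.3 in ConA 1 and 21.4 in MSA_ConA 1. The activator mix also differed: Dbp made up 57.4% and 56.0% of the summed FPKM in Control 2 and 3, 50.7% and 45.8% in ConA 2 and 3 and 41.3% and 37.9% in MSA_ConA 2 and 3. In number 1 it made up 19.5%, 33.5% and 16.7%, and Tef 58.7%, 48.0% and 61.9%. These shares are a ratio within a library, so the scaling does not enter them.

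**Figure D4:**
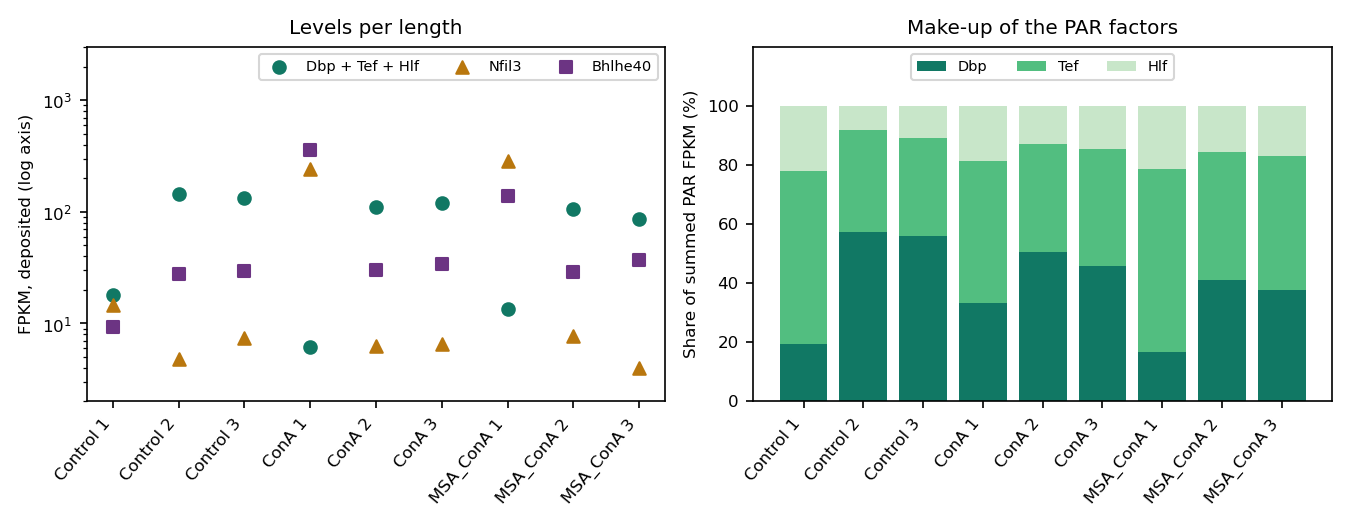
Left: FPKM in each library of the summed Dbp, Tef and Hlf, of Nfil3 and of Bhlhe40, on a log axis. Right: the percent of the summed FPKM from Dbp, Tef and Hlf. Nfil3 exceeds the summed activators in ConA 1 and MSA_ConA 1 and lies below them in the other 7 libraries.

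Profiles over the 9 libraries were compared as the root mean square difference of centred log2 CPM. Tef and Hlf were 0.200 apart, whereas Dbp was 0.894 from Tef and 0.999 from Hlf, and Nfil3 was 1.39 from Bhlhe40. The gene nearest to Dbp was Ankrd55 (0.347), followed by Mir692-1 (0.370) and Eci3 (0.391), the last 2 at up to 5.79 and 3.60 CPM. Nearest to Tef were Hlf, Zfp953 (0.218) and Slco1a4 (0.243), an organic anion transporter, and nearest to Hlf were Zfp953 (0.157), Pgap1 (0.189) and Zfp763 (0.197). Zfp953 and Zfp763 were at low levels, 0.0967 to 4.54 and 0.193 to 5.59 CPM. Nearest to Nfil3 were Il1r1 (0.266), the interleukin 1 receptor, Efna1 (0.283), an ephrin ligand, and Slc41a2 (0.405). Nearest to Bhlhe40 were Gna13 (0.340), a G protein subunit, Cblb (0.342), a ubiquitin ligase, and Enc1 (0.360). The 9 libraries fall in number classes, so genes with that division look alike by this measure.

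The other parts of the loop were read from lists, chosen with earlier results of these data known. Per1 is in both the core clock list and that of cytokine, hypoxia and glucocorticoid signalling, so it is counted in each. Of 12 core clock genes, 3 were higher and 3 lower in number 1 than in numbers 2 and 3, or 2 and 8 with library totals, beside 19.1% of all genes higher and 19.2% lower with TMM. Arntl was at 22.0, 26.2 and 29.5 CPM in number 1 (Control, ConA, MSA_ConA) and at 1.35 to 3.60 in the other 6 libraries (log2 difference 3.64, edgeR adjusted p = 0.000264). Per3 was at 6.78, 0.967 and 1.32 CPM against 96.3 to 135 (-5.45, adjusted p = 0.000738), and Per2 at 30.8, 19.5 and 36.7 against 81.5 to 128 (-1.91, adjusted p = 0.00167). So Arntl lay high, and Per3 and Per2 low, in number 1 of every group. Per1, a cytokine- and glucocorticoid-responsive clock gene, was at 6.26, 436 and 356 CPM against 14.9 to 36.1, lower in Control 1 and higher in the other 2, as was Bhlhe40. The ConA difference was higher in number 1 for 5 core clock genes and lower for 1 (3 and 1 with library totals). Among 9 other clock-controlled genes it was higher for 7 and lower for 0, under either scaling, with a median of 3.52 beside -0.09 for all genes. Of all genes, 15.7% were higher and 15.4% lower by this test. Within Control, 7 of the 9 were lower in number 1, beside 15.7% of all genes.

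Of 9 tested of 11 known PAR bZIP targets, 6 were lower in number 1 and 0 higher (median -1.62, against -0.10 for all genes; 7 lower with library totals, 1 higher with relative log expression), beside 19.2% of all genes lower and 19.1% higher. Within MSA_ConA alone the list divided, with 2 higher and 4 lower (2 and 2 in DESeq2 and limma-voom, 1 and 6 with library totals), and a median of -0.41 against -0.25 for all genes. Of all genes, 26.5% were higher and 31.9% lower within MSA_ConA. Por, the P450 reductase, named after its values were seen, was among the higher ones, by 1.90 log2 units within ConA and 2.66 within MSA_ConA (edgeR adjusted p = 0.000295 and 8.04e-05), and was lower within Control, at -0.81 (adjusted p = 0.0335). Cyp7a1, which opens the main path from cholesterol to bile acids, was at 51.0, 6.09 and 3.16 CPM in number 1 and 438 to 1003 in the others (-5.53 log2, edgeR adjusted p = 0.00441). Cyp2c37, a cytochrome P450, was at 322, 182 and 190 CPM against 642 to 974. Some genes of this list are known to differ between the sexes, and Xist moves with the same libraries; the part of that was not tested. Of 3 tested of 4 genes known to be repressed by NFIL3, 1 was higher and 0 lower in number 1, and this was Pck1, a controlling enzyme of gluconeogenesis, at 1205, 1912 and 2900 CPM against 300 to 885. G6pc was at 525 CPM in Control 1, 6.97 in ConA 1, 11.3 in MSA_ConA 1 and 62.1 to 128 elsewhere. Of 11 tested genes of cytokine, hypoxia and glucocorticoid signalling, the ConA difference was higher in number 1 for 10 and lower for 1, or 9 and 1 with library totals, beside 15.7% of all genes higher and 15.4% lower. Within Control, 1 of the 11 was higher and 5 were lower in number 1, beside 12.1% and 15.7% of all genes. Those levels enter the ConA difference. Socs3, a feedback inhibitor of cytokine signalling, was at 17.9, 1324 and 891 CPM against 2.99 to 7.54, and Stat3, the transcription factor it restrains, at 75.0, 886 and 703 against 82.7 to 99.4. Thus Socs3 and Stat3, as Nfil3, were high in ConA 1 and in MSA_ConA 1, but Stat3 was not high in Control 1. Other genes of the list differed. Tsc22d3 was at 39.0 CPM in ConA 1 and 24.9 in MSA_ConA 1, against 62.6 to 97.2 in numbers 2 and 3. Egln3 was at 415 CPM in ConA 1 but 15.4 in MSA_ConA 1. Within MSA_ConA the list median in number 1 was 0.21 log2 units, against -0.25 for all genes, or -0.88 with library totals. No list gene passed in the comparisons of whole groups.

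**Figure D5:**
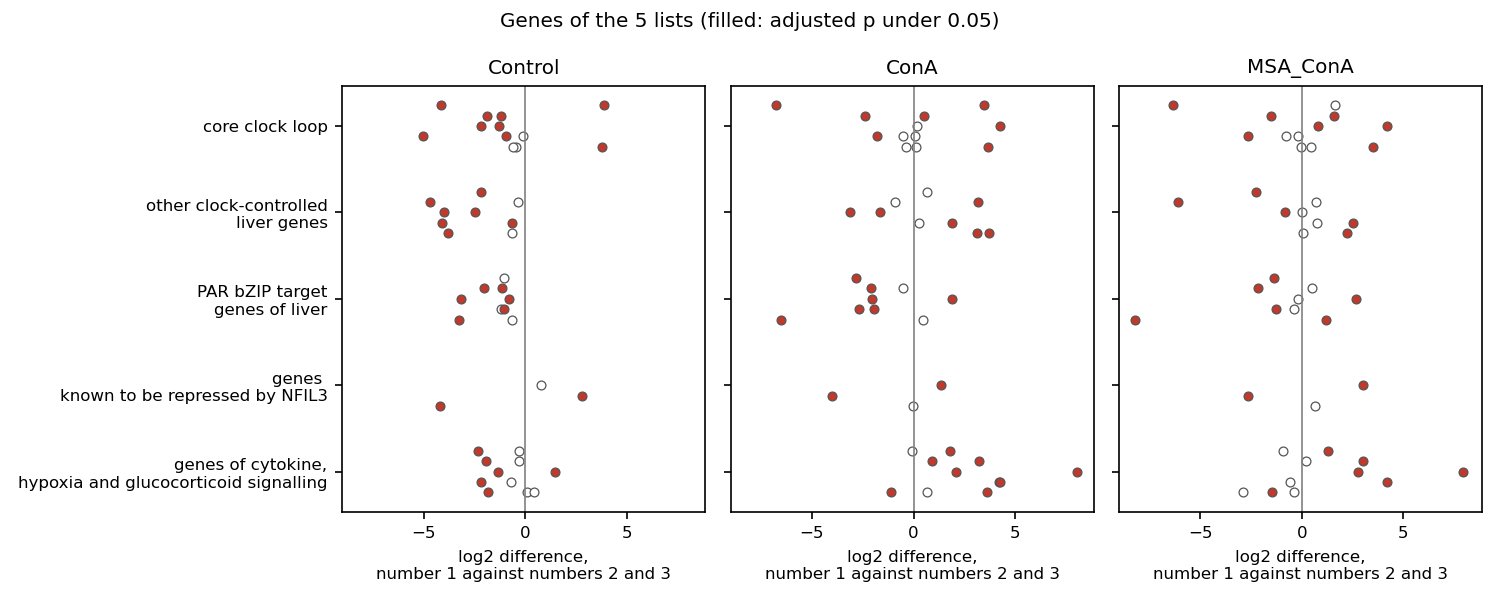
Log2 difference between number 1 and the mean of numbers 2 and 3 within each group, for each gene of the 5 lists; filled points passed the test. In Control most called genes lie below 0, and of all genes 12.1% were called higher and 15.7% lower there. In ConA 8 of the 11 signalling genes were called above 0, beside 26.6% of all genes.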

How the data were processed

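RNA was extracted with Trizol from mouse liver and libraries were built with an Illumina kit from total RNA, per the labels' protocols. The submitters' processing notes name Bowtie 0.12.2 with mm8 and mm10 but give them no role; no source used here names the gene counter or its use of strand. The authors deposited raw counts per gene and FPKM (counts over gene length and over a single scaling total for each library). Gene models in the deposited tables are on a C57BL/6NJ strain assembly. Dbp shares its end with Sphk2 on the other strand (185 to 969 counts), so their reads may not be separable.

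Libraries were matched to groups by title; columns headed by M were taken as MSA_ConA, whose label begins with it. edgeR 4.0.16 quasi-likelihood tests (R 4.3.3) were run on the deposited counts with TMM and the default filter (14603 genes), with Benjamini-Hochberg adjustment over all genes. CPM are scaled by TMM on library totals. Other fits tried were limma 3.58.1 (voom, and on log2(FPKM + 1)), DESeq2 1.42.0, other scalings, no filter, only the groups compared, only libraries numbered 2 and 3, a block for library number, and leaving out each library. Same-numbered libraries deviated together from their group means (r = 0.303 to 0.713 over 9 pairs), which is the basis of the block. Libraries numbered 2 deviated with those numbered 3 as much (r = 0.313 to 0.681 over 6 pairs), so these values set number 1 apart but do not pair 2 with 2 or 3 with 3, and the labels give no shared litter or day. Comparisons within a group between number 1 and numbers 2 and 3 were chosen after seeing the data. The 5 genes and the lists were chosen with earlier results of these data known. Named genes are the 5 factors, the 3 nearest profiles of each, and from each list up to 3 genes with the smallest unadjusted p for library number. The scripts were tested on simulated counts.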

Additional observations from a re-analysis of the deposited data

Results flagged for a closer look

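The ConA response differed between the libraries numbered 1 and those numbered 2 and 3, in a test of the difference itself. The difference was -1.75 log2 units for Tef, -2.06 for Hlf, 3.97 for Nfil3 and 5.07 for Bhlhe40. The difference between MSA_ConA and ConA differed likewise, by 1.54 log2 units for Tef, 1.34 for Hlf and -1.44 for Bhlhe40. Each group has 1 library numbered 1, so that library and its class cannot be told apart, and the spread in the test comes from numbers 2 and 3.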

How the results depend on the processing

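Dbp had 49 to 138 counts in the libraries numbered 1, so its ratios between those libraries are among the least precise. No member passed the test between whole groups in any alternative, although DESeq2 called 2 genes in ConA against Control, 1 in MSA_ConA against ConA and 64 in MSA_ConA against Control. The fit with library number as a replicate block called 0 genes in each and changed no call. The log2 differences between groups changed sign as follows, none of them called, and the cause was not tested. In ConA against Control, Hlf was -0.39 in limma-voom, -0.23 in limma on FPKM and -0.36 with the replicate block. In MSA_ConA against ConA, Nfil3 was -0.022 with library totals, -0.14 in limma-voom and -0.025 in limma on FPKM, and Tef was -0.0018 without the filter; with numbers 2 and 3 alone Tef was -0.052, Hlf -0.017, Nfil3 -0.12 and Bhlhe40 0.047. In MSA_ConA against Control, Nfil3 was -0.074 with numbers 2 and 3 alone and Hlf -0.049 with the replicate block. Leaving out 1 library in turn gave, for ConA against Control, Dbp -1.06 to 0.052, Tef -0.66 to 0.34, Hlf -0.37 to 0.66 and Nfil3 -0.47 to 3.75. For MSA_ConA against ConA it gave Dbp -1.10 to 0.000886, Tef -0.53 to 0.47, Hlf -0.50 to 0.53, Nfil3 -3.82 to 3.88 and Bhlhe40 -2.07 to 1.03. For MSA_ConA against Control it gave Tef -0.62 to 0.27, Hlf -0.23 to 0.62 and Nfil3 -0.61 to 3.96. Bhlhe40 in number 1 against the rest was 2.77 (edgeR adjusted p = 0.000468) without Control 1, 1.90 in DESeq2 (adjusted p = 0.0116), and -1.62 within Control alone. Within MSA_ConA alone, number 1 against the rest called 8522 genes; without 1 library the count over all groups was 4016 to 8145. For the difference of MSA_ConA and ConA between number classes, limma-voom called 1623 genes, and leaving out 1 library gave 1368 to 2403, with Nfil3 at -0.077 to 0.88.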
